A study of Mus musculus with 8 samples.

Results

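The 7 genes followed array by array in the olfactory bulb make products that fill the granules and cytosol of neutrophils: S100a8, S100a9, Ngp, Camp, Ltf, Lcn2 and Mpo. Every noncontrol probe whose gene name in the scanner files is one of these symbols was taken. This gave 9 probes of 7 genes, among 55681 noncontrol probes and 34797 gene names on the array. The genes were chosen by values already seen in these data, the differences of S100a8 and other neutrophil genes between pools and between duplicate arrays, so the differences below are a description, with no test.

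The RNA came from the olfactory bulbs of C57BL/6J mice aged 56 days. Dams and pups lived in a standard cage (C) or with environmental enrichment (EE), which is a larger cage with a running wheel, a small house and toys. After weaning the offspring kept their housing and breathed clean air or diesel exhaust (DE) at 90 µg/m3 for 8 hours a day on 28 days, from postnatal day 28 to postnatal day 55. The 4 groups are C-C (standard cage, clean air), C-DE (standard cage, diesel exhaust), EE-C (enrichment, clean air) and EE-DE (enrichment, diesel exhaust). Per the methods of the study, the mice were males, RNA was pooled within a group, and each pool was divided over 2 one-colour arrays. A group is therefore 1 pool. The 2 arrays repeat the labelling and hybridisation, not the animals, and no p-value can be given for exposure or rearing. The 8 arrays share 1 slide. Its first column holds C-C and C-DE and its other column EE-C and EE-DE, and rearing and slide column therefore cannot be told apart.

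Neutrophils are short-lived white blood cells that are made in the bone marrow and carried in blood, and a healthy brain holds few of them outside its vessels. Their granule proteins are made in sequence as the cells mature. Myeloperoxidase and the serine proteases of primary granules come first, lactoferrin, cathelicidin and neutrophilic granule protein of secondary granules follow, and the S100 proteins of the cytosol come late. S100a8 and S100a9 encode the subunits of calprotectin, which binds calcium and zinc and is released as a danger signal. Ltf encodes lactoferrin, which binds iron. Lcn2 encodes lipocalin 2, which binds the iron carriers of bacteria and is also made by glia and endothelium in inflammation. Camp encodes the antimicrobial cathelicidin, Ngp a relative of the cystatins, and Mpo the haem enzyme that makes hypochlorous acid.

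The probes are 60 bases long, and those below show what was hybridised for the genes on which the results turn. The S100a8 probe (NM_013650, from base 213 of the transcript, chr3:90473778-90473837 on mm9) and the Ltf probe (NM_008522, from base 1974, chr9:110942873-110942932) each lie within 1 stretch of the genome. The Ngp probe (NM_008694, from base 399) is given a span of 549 bases, chr9:110324266-110324814, and so crosses an exon junction. The dimmer Mpo probe (AY500847, from base 1629, chr11:87615121-87615180) is shown because it was the only one of the 9 that did not read above background throughout. No part of these 4 sequences is singled out, and all letters are in lower case.
S100a8: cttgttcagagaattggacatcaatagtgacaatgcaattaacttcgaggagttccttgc
Ltf: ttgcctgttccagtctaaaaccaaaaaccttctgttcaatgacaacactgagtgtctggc
Ngp: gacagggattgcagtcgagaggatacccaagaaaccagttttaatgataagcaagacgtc
Mpo: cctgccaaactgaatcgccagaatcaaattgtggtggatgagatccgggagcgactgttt

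Camp has 2 probes for the same transcript (NM_009921, from bases 519 and 529), which overlap by 50 bases and differ at 2 of them. They are shown because they give an internal check on 1 gene. The first 30 bases of the overlap follow, with the differing bases in capitals. Counted from the start of the overlap, the later probe differs from the earlier one by A6G and T10C. The mm9 coordinates in the files cover all 60 bases of the earlier probe (chr9:109749911-109749970) and 50 bases of the later one (chr9:109749901-109749950).
Camp, earlier probe: cagccAgagTagtaggcctgccttggcctg
Camp, later probe: cagccGgagCagtaggcctgccttggcctg

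Of the 9 probes, 8 passed on every array as well above background and free of outlier flags, and together they measured all 7 genes. The Mpo probe AY500847 was well above background on 1 array, the first of EE-C, and on none of the 2 arrays of C-C, C-DE or EE-DE, so no fold is given for it. Mpo is described below by its other probe (NM_010824, chr11:87617840-87617899). The other 2 genes were read by the S100a9 probe (NM_009114, chr3:90496573-90496632) and the Lcn2 probe (NM_008491, chr2:32240199-32240258). Levels are log2 signals minus the 75th percentile of the array, so 0 means a spot as bright as that percentile. Probes differ in how strongly they bind, so levels are compared between arrays and not between genes. The brightest gene of a list is that with the highest probe signal, which need not be the most expressed.

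The 75th percentile lay between 644 and 716 intensity units, and no noncontrol spot was saturated. Of the noncontrol spots, 68.0% to 70.6% were well above background on 7 arrays, and 56.7% on the first of EE-DE. After the filter, 21709 probes remained. All 14 genes of a list for the olfactory bulb were measured, with Gad1, which makes the transmitter GABA, the brightest at a mean level of 5.90, and none of them differed 1.5-fold between C-DE and C-C.

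S100a8 read -0.19 and -0.53 on the first and second array of C-C, -1.15 and -1.35 in C-DE, 0.50 and -0.81 in EE-C, and -0.04 and -0.80 in EE-DE. S100a9, which encodes its partner, read 1.59 and 1.28 in C-C, 0.66 and 0.46 in C-DE, 2.52 and 0.85 in EE-C, and 1.75 and 1.00 in EE-DE. Both S100 genes had their lowest values on the 2 C-DE arrays, which did not overlap with those of any other pool. Their highest value was on the first EE-C array and the next highest on the first EE-DE array, while the second arrays of both enriched pools lay between those of C-C and C-DE.

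The genes of the secondary granules had the same order at the top. Ltf read -3.16 and -3.12 in C-C, -3.91 and -4.27 in C-DE, -2.14 and -3.54 in EE-C, and -2.71 and -3.65 in EE-DE. Ngp read -3.45 and -3.95 in C-C, -3.90 and -4.96 in C-DE, -2.57 and -4.29 in EE-C, and -3.14 and -4.37 in EE-DE. The C-DE arrays were the lowest for Ltf, whereas the first C-DE array of Ngp lay between the C-C arrays. The earlier Camp probe read -0.76 and -0.83 in C-C, -1.24 and -1.34 in C-DE, 0.34 and -1.09 in EE-C, and -0.49 and -1.03 in EE-DE. The later Camp probe read -1.60 and -1.50 in C-C, -1.76 and -1.91 in C-DE, -0.57 and -1.58 in EE-C, and -1.21 and -1.66 in EE-DE. The 2 Camp probes ordered the pools alike, and their levels had a Pearson r of 0.98 over the 8 arrays. The later probe covered a smaller range, 1.34 on the log2 scale against 1.69.

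Mpo, of the primary granules, read -3.35 and -3.81 in C-C, -4.29 and -4.04 in C-DE, -1.96 and -3.62 in EE-C, and -2.68 and -3.66 in EE-DE. Lcn2 read -1.88 and -1.81 in C-C, -1.84 and -2.08 in C-DE, -1.32 and -2.09 in EE-C, and -1.61 and -1.74 in EE-DE. Lcn2 spanned 0.77 over the 8 arrays, the smallest span of the 7 genes, and its lowest value was on the second EE-C array. The span was 1.51 for Camp as the mean of its probes, 1.85 for S100a8, 2.06 for S100a9, 2.13 for Ltf, 2.34 for Mpo and 2.39 for Ngp. For all 7 genes the first EE-C array was the highest and the first EE-DE array the second highest. The lowest array was the second of C-DE for 5 genes, the first of C-DE for Mpo and the second of EE-C for Lcn2.

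**Figure D1:**
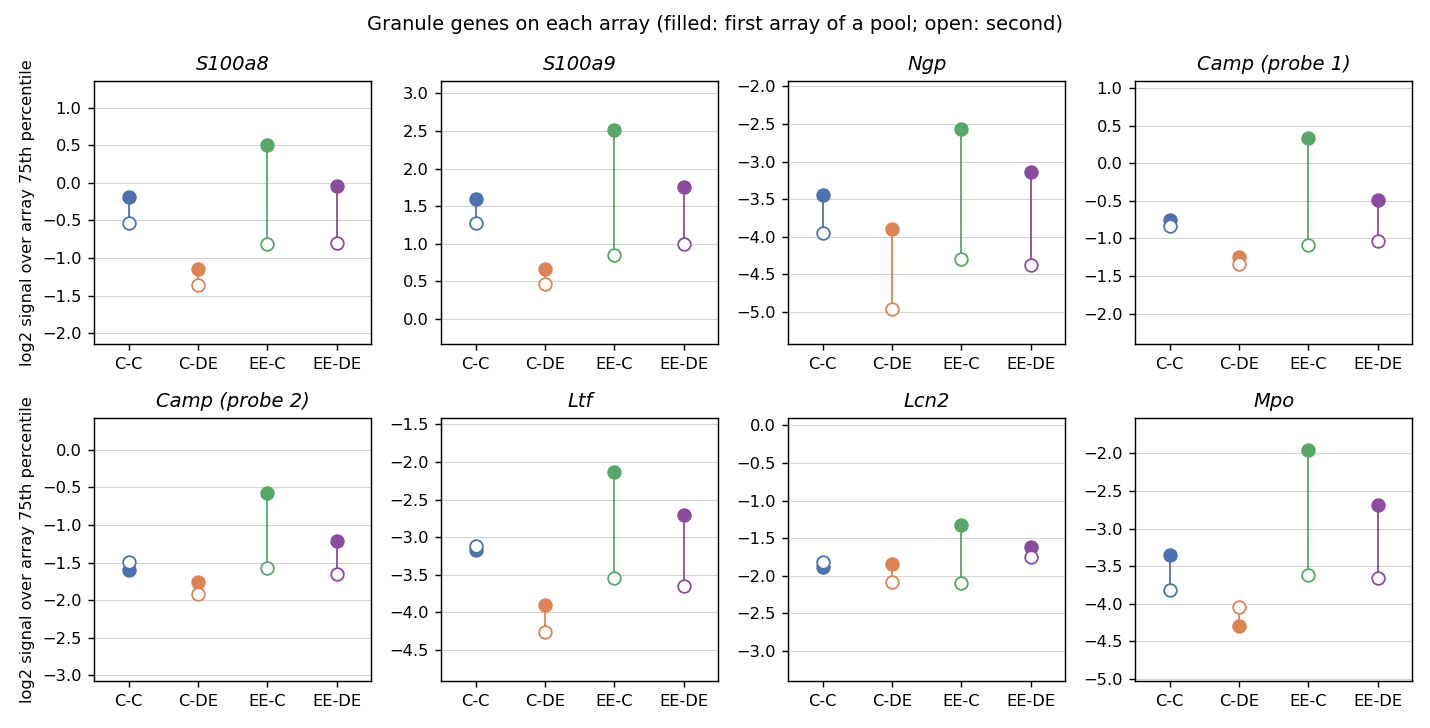
Level of each granule gene probe (log2 signal minus the 75th percentile of the array) on the first array (filled) and second array (open) of each pool, joined by a line; Camp has 2 probes, and every panel spans the same number of log2 units. The first EE-C array is the highest in all 8 panels, at 0.50 for S100a8 against -0.81 on its duplicate.

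The question of the exposure in standard cages is addressed by C-DE against C-C. All 7 genes were lower in C-DE, by a median of -0.73 on the log2 scale, against -0.01 over all 21709 probes. Over the 4 pairings of a C-DE array with a C-C array, this median ran from -1.10 to -0.48. In bulk tissue, fewer cells of a type and less RNA per cell cannot be told apart. Of the 8 probes, 5 were at least 1.5-fold lower, the threshold of the study, and 0.433% of all probes were. Ltf was 1.93-fold lower in C-DE (log2 difference -0.95, -1.15 to -0.74 over the pairings), S100a8 1.85-fold lower and S100a9 1.83-fold lower. These 3 genes were past 1.5-fold in all 4 pairings, as were 0.0967% of all probes in that direction.

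Ngp differed by -0.73 with a range of -1.51 to 0.05, so its duplicates spread too far to set the pools apart. Mpo differed by -0.59 (-0.95 to -0.23), just past the threshold of 0.585. Under other scalings it fell short, at -0.56 with quantile scaling, -0.58 with median scaling and -0.58 in the series table, and 4 of the 8 probes were then past 1.5-fold, beside 124 of all probes in either direction under each of the 3. Camp differed by -0.39 (-0.46 to -0.32) as the mean of both probes, short of the threshold but within a narrow range. The earlier Camp probe gave -0.50 and the later -0.29. Lcn2 differed by -0.11 (-0.26 to 0.04), and its arrays overlapped. In all, 6 of the 8 probes had both C-DE arrays below both C-C arrays, as did 22.4% of all probes.

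The depth of the signal limits these values. The Ltf, Ngp and Mpo spots read 21.3 to 81.4 intensity units on the C-C and C-DE arrays, whereas S100a8 read 259 to 571 and S100a9 910 to 1965. With normexp background correction and an offset of 50, which draws dim spots together, Ltf differed by -0.44, Ngp by -0.24 and Mpo by -0.21, while S100a8 kept -0.75 and S100a9 -0.78. The median was then -0.32 and 2 probes were past 1.5-fold, while the count over all 21709 probes in either direction went from 125 to 38. Without the first C-C array the median was -0.48 and 3 probes were past it, beside 0.295% of all probes lower by 1.5-fold in the same fit.

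With enrichment, EE-DE against EE-C, no probe of the 8 was past 1.5-fold in either direction, and 0.944% of all probes were. The median over the 7 genes was -0.32, but it ran from -1.52 to 0.84 over the pairings. The differences of Mpo (-0.38), Camp (-0.37), Ltf (-0.34), Ngp (-0.32), S100a9 (-0.31) and S100a8 (-0.26) were close to one another, and that of Lcn2 was 0.03. For each of the 7 genes the 4 pairings included both signs. The outcome turned on single arrays. Without the first EE-C array the median was 0.41 and no probe was past 1.5-fold. Without the second EE-C array it was -1.04 and 7 probes were at least 1.5-fold lower, beside 0.668% of all probes. Without the first EE-DE array it was -0.69 and 6 were, beside 0.364% of all probes. Exposure minus clean air, taken with enrichment minus that in standard cages, was 0.63 for S100a8, 0.61 for Ltf, 0.57 for S100a9, 0.41 for Ngp, 0.20 for Mpo, 0.14 for Lcn2 and 0.02 for Camp. This difference was not tested, and its sign turned when some arrays were left out. Without the second EE-C array it was below 0 for all 7 genes, from -0.63 for Mpo to -0.03 for S100a8, and it was below 0 for 3 genes without the first EE-DE array, 2 without the second C-DE array and 1 without the first C-C array.

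Rearing under clean air is addressed by EE-C against C-C. The 7 genes were higher in EE-C by a median of 0.27, with a range of -0.38 to 1.05 over the pairings. Of the 8 probes, 1, that of Mpo, was past 1.5-fold (0.79, -0.27 to 1.85), and 0.286% of all probes were at least 1.5-fold higher. Camp was next at 0.45, followed by Ltf at 0.30, Ngp at 0.27, S100a9 at 0.25, S100a8 at 0.21 and Lcn2 at 0.14. None of these excesses stood without the first EE-C array. The median was then -0.40, Mpo differed by -0.04, and 2 probes were past 1.5-fold, in the other direction, beside 0.451% of all probes. Without the second EE-C array the median was 1.06 and 7 probes were higher by 1.5-fold, beside 0.511% of all probes.

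Rearing under diesel exhaust, EE-DE against C-DE, gave the largest median of the 5 comparisons. All 7 genes were higher in EE-DE, by a median of 0.81 (0.26 to 1.31). Of the 8 probes, 5 were at least 1.5-fold higher, beside 0.557% of all probes, and they were those of Mpo (1.00, 0.38 to 1.61), Ltf (0.91, 0.26 to 1.56), S100a8 (0.83, 0.35 to 1.31), S100a9 (0.81, 0.33 to 1.29) and Ngp (0.68, -0.47 to 1.82). Camp was higher by 0.47 and Lcn2 by 0.28. In 7 of the 8 probes both EE-DE arrays lay above both C-DE arrays, as in 21.2% of all probes, the exception being Ngp. None of the 8 was past 1.5-fold in all 4 pairings, as 0.175% of all probes were. Without the first EE-DE array the median was 0.43 and no probe was past 1.5-fold, while 0.557% of all probes were higher by that much. Without the second EE-DE array it was 1.21 and 7 probes were past 1.5-fold, beside 0.866% of all probes. With normexp correction the median was 0.42 and 2 probes, those of S100a8 (0.68) and S100a9 (0.76), were past 1.5-fold, while the count over all probes in either direction went from 138 to 53. Mpo then differed by 0.54, Ltf by 0.42 and Ngp by 0.39.

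EE-DE against C-C, which differ in both exposure and rearing, gave a median of -0.04 (-0.49 to 0.47). No probe of the 8 was past 1.5-fold, and 0.815% of all probes were in either direction. S100a8, S100a9, Ngp and Ltf lay between -0.06 and -0.04, while Mpo differed by 0.41 (-0.31 to 1.13) and Lcn2 by 0.17 (0.07 to 0.26). This comparison shares the C-C arrays with C-DE against C-C and the EE-DE arrays with both other comparisons of EE-DE, so the 5 sets of values are not independent.

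**Figure D2:**
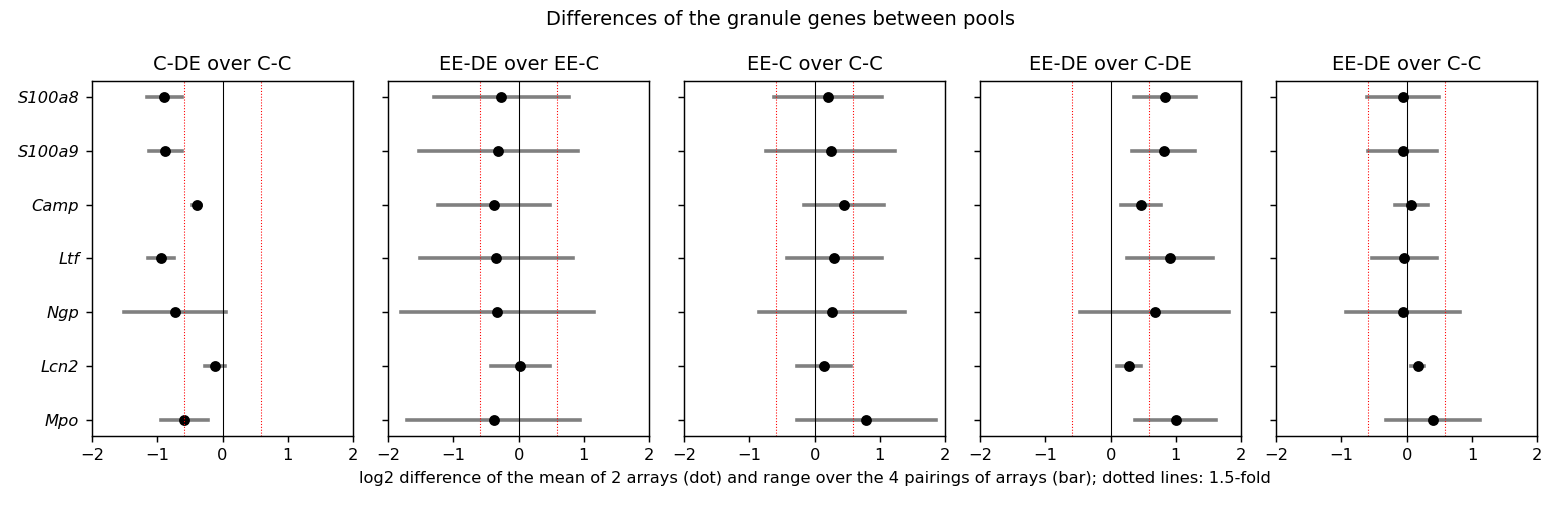
Difference of the mean log2 signal of 2 arrays (dot) and its range over the 4 pairings of arrays (bar) for the 7 granule genes in the 5 comparisons; dotted lines mark 1.5-fold. In C-DE over C-C the bars of S100a8, S100a9 and Ltf lie wholly below the lower dotted line, whereas in EE-DE over EE-C every bar crosses 0.

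The duplicates of a pool received the same RNA, and the granule genes differed between them. In EE-C the first array exceeded the second for all 7 genes, by 1.73 for Ngp, 1.67 for S100a9, 1.66 for Mpo, 1.41 for Ltf, 1.31 for S100a8, 1.22 for Camp and 0.77 for Lcn2. On the linear scale these are 1.70-fold for Lcn2 to 3.31-fold for Ngp. All 8 probes were at least 1.5-fold higher on the first EE-C array, and 0.852% of all probes were. In EE-DE the first array was again higher for all 7 genes, by 1.23 for Ngp, 0.98 for Mpo, 0.95 for Ltf, 0.76 for S100a9, 0.75 for S100a8, 0.49 for Camp and 0.13 for Lcn2. Of the 8 probes, 5 were past 1.5-fold there, beside 0.553% of all probes.

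The standard-cage pools were closer. In C-C the differences of the 7 genes ran from -0.06 for Lcn2 to 0.50 for Ngp, and no probe was past 1.5-fold, beside 0.820% of all probes in either direction. In C-DE they ran from -0.26 for Mpo to 1.06 for Ngp, whose probe was the only one of the 8 past 1.5-fold, beside 0.723% of all probes. The median difference was 1.41 in EE-C, 0.76 in EE-DE, 0.31 in C-C and 0.20 in C-DE, with the median of all probes between -0.00057 and 0.016. The difference between the EE-C duplicates was larger than the C-DE to C-C difference for each of the 7 genes.

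Spots beside the granule probes did not share the difference between the EE-C arrays. For each of the 8 probes, the 147 to 176 other passing spots within 10 rows and 10 columns were compared between the same 2 arrays, and their median difference was -0.08 to 0.17, against 0.77 to 1.73 for the granule genes. The first EE-C array had 252 spots with an outlier flag, against 84 to 134 on the other arrays. The filter required the 8 passing granule probes to be free of such flags, so the flags cannot speak to their difference. What made the duplicates differ was not tested.

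**Figure D3:**
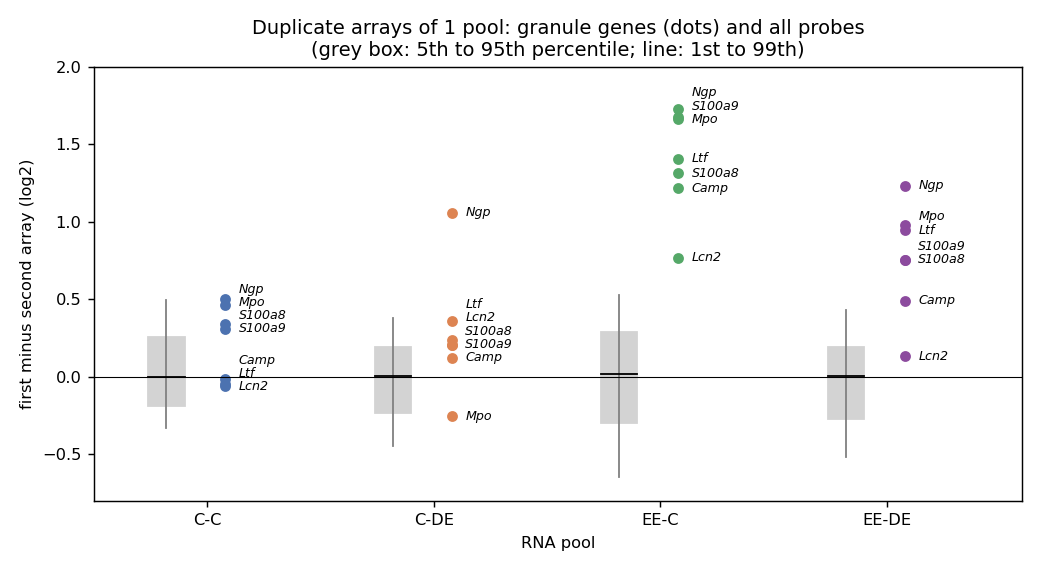
First minus second array of each RNA pool on the log2 scale for the 7 granule genes (dots) beside all 21709 probes (box from the 5th to the 95th percentile, line from the 1st to the 99th, bar at the median). In EE-C all 7 genes lie above the 99th percentile of 0.53, from 0.77 for Lcn2 to 1.73 for Ngp.

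The other genes of neutrophils were read from lists chosen with earlier results of these data known. All 3 genes of other primary granule proteins were measured. Ctsg, which encodes cathepsin G, differed by -0.25 between C-DE and C-C (-0.44 to -0.06), Elane (neutrophil elastase, the brightest of the 3) -0.24 and Prtn3 (proteinase 3) -0.03, so none was past 1.5-fold. Between the EE-C duplicates Ctsg differed by 0.62 and Elane by 0.17. Of 12 further secondary and gelatinase granule genes on the array, 6 were measured, with a median of -0.13 in C-DE against C-C. At least 1.5-fold lower were 2, Slpi, an inhibitor of neutrophil proteases (-0.63, -0.97 to -0.29), and Hp, which encodes haptoglobin (-0.62, -1.03 to -0.21), beside 0.433% of all probes. Without the first C-C array Slpi differed by -0.51 and Hp by -0.36, both short of the threshold of 0.585. Without the first C-DE array Slpi differed by -0.41 and Hp by -0.77, and without the second Slpi by -0.85 and Hp by -0.46. Chi3l3, a chitinase-like protein, differed by -0.21, and Pglyrp1, which binds peptidoglycan, by 0.11, the highest of the list. Cyba, a subunit of the NADPH oxidase and the brightest of the list, differed by 0.06. Between the EE-C duplicates the median of the 6 was 0.43, and 3 were at least 1.5-fold higher on the first array, beside 0.852% of all probes. They were Hp (1.27), Chi3l3 (1.06) and Slpi (0.76), whereas Cyba differed by 0.11, Pglyrp1 by 0.017 and Adam8 by -0.0087.

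Of 27 other neutrophil genes, 9 were measured and 10 were not well above background on any array, among them Cxcr2, the receptor for neutrophil-attracting chemokines, Stfa2l1, Il1b and Fpr2. Mmp8, which encodes neutrophil collagenase, was likewise not well above background on any array. The probe named Ly6g, the surface marker of mouse neutrophils, has an Ensembl and not a GenBank identifier and fell outside the filter. It was well above background on all 8 arrays, between -3.65 and -3.23, and differed by 0.11 between C-DE and C-C and by 0.12 between the EE-C duplicates. Among the 9 that were measured, the median was -0.05 in C-DE against C-C. Between the EE-C duplicates their median was 0.46, with 7 higher on the first array, from -0.27 for Trem1 to 1.11 for Retnlg. Of the 9, 4 were at least 1.5-fold higher there and 0 lower, beside 0.852% of all probes higher by that much. In C-DE against C-C, Retnlg, which neutrophils secrete, was the lowest (-0.62, -1.39 to 0.14). It was the only one past 1.5-fold, beside 0.433% of all probes lower by that much. Its difference was 0.10 without the first C-C array, -1.35 without the second, -0.67 without the first C-DE array and -0.58 without the second. The median of the 9 then lay between -0.03 and 0.01. Stfa2, a protease inhibitor, was the highest (0.56, 0.30 to 0.82). Csf3r, the receptor for granulocyte colony-stimulating factor, was the brightest, at 6.55 to 6.83 over the 8 arrays, with a difference of 0.03.

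Levels of a list were summed in units of the 75th percentile of the array, to compare arrays within a list and not lists with one another. The 7 granule genes summed to 4.90 and 4.10 on the first and second array of C-C, 2.85 and 2.47 in C-DE, 9.12 and 3.22 in EE-C, and 5.64 and 3.47 in EE-DE. The 9 other neutrophil genes, most of whose sum is Csf3r, summed to between 99.3 and 119, with the lowest sum on the first EE-C array. Csf3r differed by -0.19 between the EE-C duplicates, whereas 7 of the 9 genes were higher on the first of them. This sum therefore does not stand for the other genes of the list. The 6 secondary granule genes outside the 7 summed to between 2.46 and 2.88, with the highest on the first EE-C array.

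Transcription factors of granulocyte development showed little of the pattern. Of 7 on the array, 4 were measured, and their differences between C-DE and C-C lay between -0.09 for Cebpb and -0.04 for Cebpa. Cebpd was the brightest at a mean level of 2.58 and differed by -0.05. Cebpe, which drives secondary granule genes, was well above background on 3 arrays and Gfi1 on 1. Of 12 receptors and binding partners of the granule proteins, 8 were measured, with a median of -0.01 in C-DE against C-C and no gene past 1.5-fold. Tlr4, a receptor for calprotectin, differed by -0.12, and Slc22a17, a receptor for lipocalin 2 and the brightest, by -0.02. Cd36 was the lowest at -0.27 and Cd14 the highest at 0.06. Ager, which encodes another receptor for S100 proteins, was well above background on 1 array.

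The promoters of the 7 genes were all present in RefSeq on build GRCm38.p6, as windows of 300 bases from 250 before to 50 after the annotated start. Motifs of the factor families that act in granulocytes were searched on both strands. TTNNGNAA, the core of a C/EBP site, was in 5 of the 7 windows (S100a8, S100a9, Ngp, Ltf and Lcn2) and in 40.7% of 32851 promoters. AGGAAG, which holds the core of an ETS site, was in 5 of 7 (S100a8, Camp, Ltf, Lcn2 and Mpo) and in 35.4%. TATAAA was in 2 of 7 (S100a8 and S100a9) and in 13.6%. No matches overlapped in these windows. The 250 bases before the start are shown for S100a8 and Ltf, which had the largest differences between C-DE and C-C, and for Ngp, which had the largest between the EE-C duplicates. Matches are in capitals, and a match is only a run of letters, not a shown site.
S100a8 (chr3:90668821-90669070, plus strand): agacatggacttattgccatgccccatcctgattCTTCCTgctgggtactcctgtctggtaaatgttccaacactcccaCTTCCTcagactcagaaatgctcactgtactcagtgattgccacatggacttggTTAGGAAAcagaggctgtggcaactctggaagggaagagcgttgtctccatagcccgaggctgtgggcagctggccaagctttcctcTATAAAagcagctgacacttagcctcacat
Ltf (chr9:111019042-111019291, plus strand): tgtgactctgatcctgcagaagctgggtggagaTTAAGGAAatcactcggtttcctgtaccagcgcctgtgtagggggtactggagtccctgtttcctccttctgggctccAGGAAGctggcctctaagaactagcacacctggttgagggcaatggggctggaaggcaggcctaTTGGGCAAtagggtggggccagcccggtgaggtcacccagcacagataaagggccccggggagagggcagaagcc
Ngp (chr9:110419558-110419807, plus strand): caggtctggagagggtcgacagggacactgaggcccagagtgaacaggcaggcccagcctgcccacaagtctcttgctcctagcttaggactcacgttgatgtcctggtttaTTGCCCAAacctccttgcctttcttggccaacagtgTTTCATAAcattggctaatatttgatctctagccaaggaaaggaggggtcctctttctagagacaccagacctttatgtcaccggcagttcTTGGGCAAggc

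Among probes with an SD of at least 0.2 over the 8 arrays, 1805 outside the 7 genes had a gene symbol, and they were ranked by the Pearson r of their levels with the mean profile of the 7. That profile was 1.10 on the first EE-C array and 0.50 on the first EE-DE array, against -0.45 and -0.72 on the C-DE arrays. The arrays share 4 pools and 1 slide, so r is a description. Each of the 7 had an r of 0.87 (Lcn2) to 0.99 (S100a9) with the mean of the other 6. The 10 most alike were Ctsg (0.97), Cbfa2t3 (0.97), Hp (0.95), Marveld3 (0.94), Ahsp (0.94), Ifitm6 (0.94), Chi3l3 (0.93), Slc4a1 (0.92), Gm6522 (0.91) and Tmem200c (0.90). Ctsg, Hp and Chi3l3 are on the lists of granule proteins above. Ahsp, which encodes the chaperone of alpha globin, and Slc4a1, the anion exchanger of red cells, are on the list of red cell genes. Ahsp had the largest change of the 10 between the EE-C duplicates, 1.76, and differed by -0.80 between C-DE and C-C. Ifitm6 differed by 0.46 between the EE-C duplicates and Tmem200c by 0.49.

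**Figure D4:**
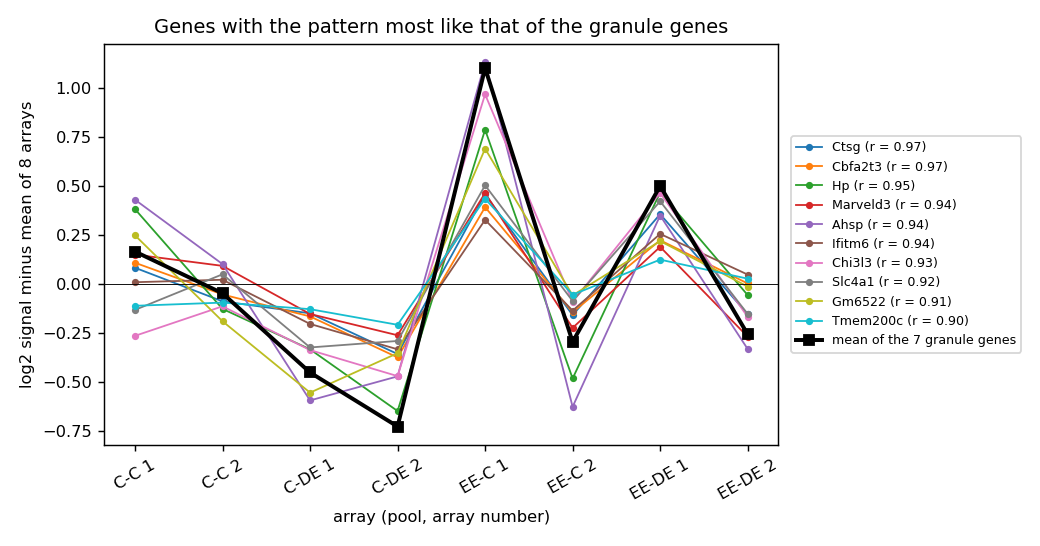
Log2 signal minus the mean of the 8 arrays for the mean of the 7 granule genes (black squares) and the 10 genes most like it, by array. The black line peaks at 1.10 on the first EE-C array and at 0.50 on the first EE-DE array, and is lowest at -0.72 on the second C-DE array.

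Markers of other cells moved with the granule genes on some arrays. Of 14 red cell genes on the array 11 were measured, and their median was -0.21 in C-DE against C-C, with Ahsp the lowest and Hemgn the highest (0.07). They summed to 222 and 246 in C-C, 216 and 191 in C-DE, 286 and 202 in EE-C, and 226 and 231 in EE-DE. Hba-a2, an alpha globin gene and the brightest, differed by -0.25 between C-DE and C-C and by 0.64 between the EE-C duplicates. The red cell marker Rhag was not well above background on any array. Of 21 olfactory mucosa genes (supporting cells and glands), 16 were measured, and 12 were at least 1.5-fold lower in C-DE, beside 0.433% of all probes. Their median was -1.08 (-1.61 to -0.50 over the pairings), and without the first C-C array it was -0.68 with 10 genes past 1.5-fold, beside 0.295% of all probes. Cyp2g1 was the lowest (-1.59), Obp1a the highest (-0.03), and Gldc, the brightest, differed by -0.12. The sum of the list was 18.3 and 12.4 in C-C, 8.75 and 9.76 in C-DE, 17.4 and 10.8 in EE-C, and 14.5 and 20.1 in EE-DE. The mucosal sum was highest on the second EE-DE array, where each of the 7 granule genes was below the first EE-DE array. Between the EE-DE duplicates the mucosal median was -0.63, with 10 genes at least 1.5-fold lower on the first array, beside 145 of all probes. Between the EE-C duplicates, as for the granule genes, most were higher on the first array. The median was 1.16 and 12 of the 16 were at least 1.5-fold higher, beside 0.852% of all probes, while Obp1a differed by -2.97. In C-C the median was 0.77, with 12 higher, beside 139 of all probes. The 12 microglia genes summed to between 41.8 and 44.7, and none was past 1.5-fold in C-DE against C-C. The part of red cell or mucosal RNA in the differences of the granule genes was not tested.

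**Figure D5:**
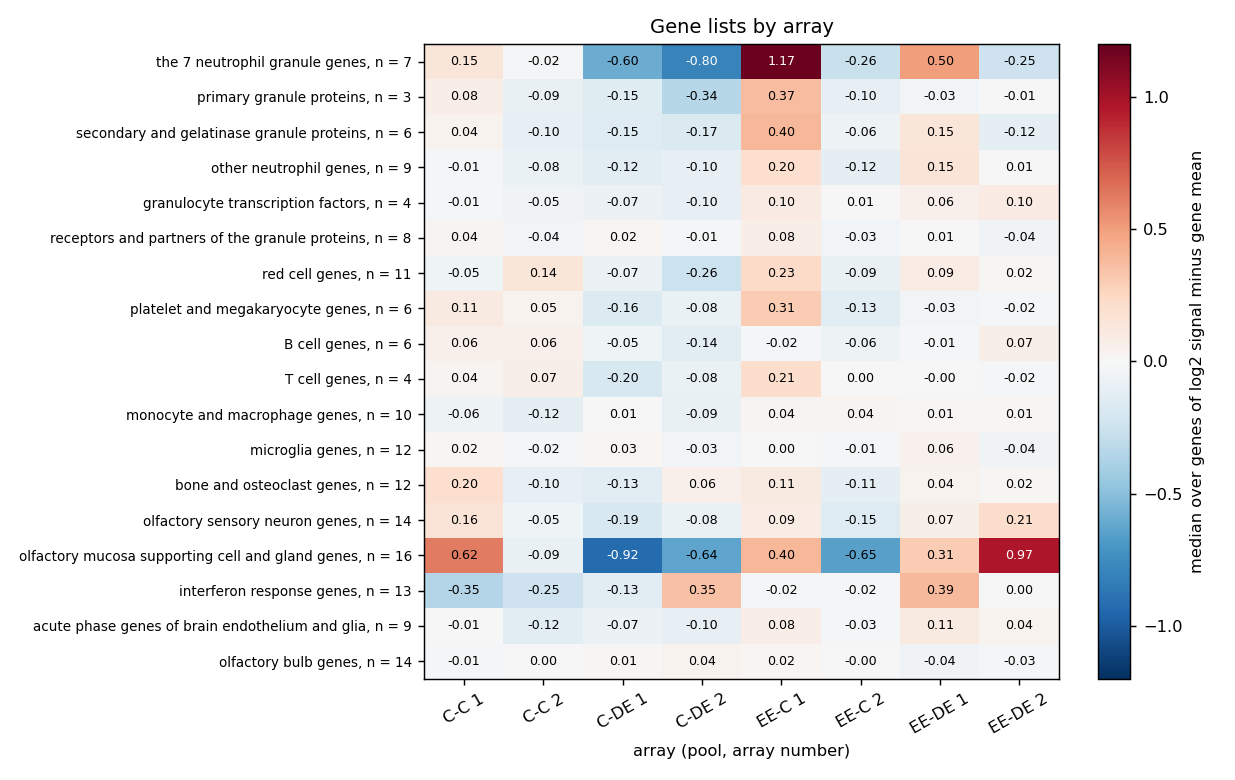
Median over the measured genes of each list of the log2 signal minus the gene's mean over the 8 arrays, with the number of genes measured. The granule genes reach 1.17 on the first EE-C array and -0.80 on the second C-DE array, while the olfactory mucosa list is highest, at 0.97, on the second EE-DE array.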

How the data were processed

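Total RNA of mouse olfactory bulb, pooled by group, was labelled with Cy3 and hybridised to 60K mouse arrays. The authors deposited intensity values as the output of Agilent Feature Extraction 10.7.3.1, per the file headers corrected for background and spatial trend within an array. The deposited log2 values of the series table, also made by the authors, served as an alternative. After centring each probe on its median, 99.4% of probes lay within 0.02 of the values used here on all 8 arrays.

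Each processed signal was divided by the 75th percentile of noncontrol spots and put on the log2 scale. Of 59305 noncontrol spots, 35736 had a GenBank or RefSeq accession, of which 23956 passed as well above background on every array and free of outlier flags. Spots of a probe, and then probes of a gene, were averaged. A difference is that of the means of 2 arrays, with its range over 4 pairings, called at 1.5-fold. No test was made, since a group is 1 pool. Array number and signal over background limit the precision.

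The 7 genes, the 17 gene lists and the comparisons were chosen with earlier results of these data known. Genes are named as follows: the 7, the extremes in C-DE against C-C and the brightest gene of a list, and the 10 of highest r; other genes were named after their values were seen, and some genes of the lists are not reported here. Alternatives were normexp (offset 50), quantile and median scaling, the series table, linear averaging, 3 filters, the brightest probe, a 2-fold threshold, 1.5-fold in all pairings and leaving out each array. Calling and ranking were tested on simulated data. The tools were limma 3.58.1 in R 4.3.3 and numpy 2.4.6, pandas 2.3.3 and matplotlib 3.10.9 in Python 3.11.15.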

Additional observations from a re-analysis of the deposited data

How the results depend on the processing

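No paired analysis was possible because each group is 1 RNA pool and no test was made. With normexp correction the median of the 7 granule genes in C-DE against C-C was -0.32 and the probes past 1.5-fold were 2, with 0 in EE-C against C-C (149 of all probes) and 2, at a median of 0.42, in EE-DE against C-DE (53 of all probes). Mpo fell short of 1.5-fold in C-DE against C-C with quantile scaling, median scaling and the series table, which left 4 probes (124 of all probes in each). Linear averaging gave 2 probes in EE-C against C-C (126 of all probes). At a 2-fold threshold there were 0 probes in C-DE against C-C, 0 in EE-C against C-C and 0 in EE-DE against C-DE, beside 27, 24 and 51 of all probes. In all 4 pairings there were 3, 0 and 0 in the same order, beside 23, 10 and 38. Leaving out each array gave medians of -0.98 to -0.48 in C-DE against C-C, -1.04 to 0.41 in EE-DE against EE-C, -0.44 to 0.32 in EE-DE against C-C, -0.40 to 1.06 in EE-C against C-C and 0.43 to 1.21 in EE-DE against C-DE. The probes past 1.5-fold were then 3 to 5, 0 to 7, 0 to 1, 0 to 7 and 0 to 7, and those of all 21709 probes 112 to 218, 212 to 396, 190 to 296, 184 to 398 and 146 to 262. Mpo in EE-C against C-C ranged from -0.038 without the first EE-C array to 1.62 without the second. The other scalings, filters and the series table kept the sign of these medians, except that EE-DE against C-C, near 0, was 0.046 with normexp and 0.052 with linear averaging, and the duplicate differences of the granule genes kept their sign under normexp, quantile scaling and the series table. The cause of each shift was not tested. All probes past 1.5-fold in C-DE against C-C were 125, 38 with normexp, 572 with the positive and significant filter, and 2187 with no filter on dim spots. The limits are 1 pool a group, dim Ltf, Ngp and Mpo spots, and the EE-C arrays, since leaving out either moved the values of EE-C. Slpi, Hp, Retnlg, Stfa2 and Ahsp were as dim, with levels from -5.68 for Stfa2 to -2.98 for Ahsp, so the same limit holds for them.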

Other observations

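Other lists of blood and brain cells were read beside the granule genes. Of 6 measured platelet genes the median was -0.22 in C-DE against C-C, with Clec1b the lowest (-0.42) and Gp1bb the highest (0.05), and Pf4, the brightest, at -0.14. Of 6 measured B cell genes the median was -0.15, from -0.36 for Vpreb3 to 0.04 for Cd79a, and Cd22, the brightest, was at -0.02. The 4 measured T cell genes had a median of -0.19, from -0.35 for Cd5 to 0.05 for Cd3e, and Cd4, the brightest, was at -0.14. The 10 measured monocyte and macrophage genes had a median of 0.06, from -0.12 for Itgam to 0.25 for Lyve1, with Ly6c1, the brightest, at 0.07. None of these 4 lists had a gene past 1.5-fold in that comparison.

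Of 12 measured bone and osteoclast genes 3 were at least 1.5-fold lower in C-DE, beside 0.433% of all probes. They were Bglap2, an osteocalcin gene, the lowest (-0.67, -1.79 to 0.45 over the pairings), Bglap (-0.62, -1.75 to 0.52) and Acp5 (-0.61, -1.43 to 0.21). All 3 ranges cross 0, and without the first C-DE array Bglap2 differed by 0.00028, Bglap by -0.021 and Acp5 by -0.30, so none was past 1.5-fold, nor was any without the first C-C array. Leaving out the second C-C or the second C-DE array gave 5, beside 0.746% and 0.645% of all probes. Dmp1 was the highest (0.12) and Col1a2, the brightest, was at -0.33. Of 14 measured genes of olfactory sensory neurons 3 were lower by 1.5-fold, beside the same share of all probes. They were Cnga4, a channel subunit of odour transduction and the lowest (-0.95, -1.39 to -0.51), Ano2 (-0.90, -1.25 to -0.55) and Ebf2 (-0.71, -1.12 to -0.30). Without the first C-C array Ebf2 differed by -0.44 and without the first C-DE array by -0.57, which left 2 genes past 1.5-fold, beside 0.295% and 0.415% of all probes. Gng8 was the highest (0.01) and Omp, the brightest, was at -0.13. Microglia genes ran from -0.11 for Fcrls to 0.14 for Tmem119, with Siglech, the brightest, at -0.10, and olfactory bulb genes from -0.06 for Calb2 to 0.12 for Doc2g.

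Of the 13 interferon response genes 12 were higher in C-DE than in C-C, 2 of them by 1.5-fold, as were 31 of all 21709 probes, with a median of 0.39 that ran from 0.14 to 0.69 over the pairings. The 2 were Cxcl10, the highest (0.74), and Isg15 (0.59), and without the second C-DE array they differed by 0.39 and 0.20, short of 1.5-fold. Leaving out the first C-DE array gave 7 genes past 1.5-fold, beside 0.336% of all probes, and leaving out the first C-C array 1, beside 0.221%. Ifi27l2a, the brightest, was at 0.30. Between the EE-C duplicates, where the granule genes differed most, they ran from -0.23 for Ifi27l2a to 0.31 for Rsad2. The 9 measured acute phase genes of brain endothelium and glia, Lcn2 among them, had a median of -0.05, from -0.15 for Lrg1 to 0.21 for Il1r1, with Socs3, the brightest, at -0.05.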
